A study of Homo sapiens with 6 samples.

Results

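The genes described here are the ligands of the platelet-derived growth factor (PDGF) family, the ligands of the vascular endothelial growth factor (VEGF) family and the neuropilins. They were taken by symbol, and all 10 (PDGFA, PDGFB, PDGFC, PDGFD, VEGFA, VEGFB, VEGFC, PGF, NRP1 and NRP2) are among the 58735 genes of the expression table. The libraries are RNA-seq of PC9-BrM3, human lung adenocarcinoma cells of the line PC9 selected for spread to the brain. In 3 libraries AKR1B10, an aldo-keto reductase, was silenced with an shRNA carried by the lentiviral vector LV2 (BrM3-shAKR1B10, labelled AKR1B10 knockdown), and 3 libraries carried the negative control shRNA (BrM3-shNC, labelled WT). Both groups were cultured routinely in RPMI1640 with 10% serum, without a drug. Each group is a single shRNA in a single cell line, and nothing in the labels says that the 3 libraries came from separate cultures, so the p-values measure only the spread between these libraries.

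PDGF ligands are secreted growth factors for mesenchymal cells such as fibroblasts and pericytes, and they act through the receptor tyrosine kinases PDGFRA and PDGFRB. PDGFA and PDGFB form the classical chains. PDGFC and PDGFD carry a CUB domain and are secreted in a latent form that proteases cut to release the active growth factor. VEGF ligands act on vessels: VEGFA drives blood vessel growth through KDR, VEGFB and PGF bind FLT1, and VEGFC is best known for lymphatic vessel growth through FLT4. NRP1 and NRP2 are co-receptors without a kinase domain that bind both VEGF ligands and class 3 semaphorins.

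The libraries held 16964504 to 18709028 reads on genes, recovered as whole numbers from FPKM and gene length. AKR1B10 was 107 to 110 FPKM in the silenced libraries and 772 to 799 FPKM in the controls, so the labels and the targeted gene go together. The epithelial markers KRT8, KRT18, KRT19, EPCAM and CDH1 were abundant in every library, with KRT19 at 869 to 974 FPKM. The stromal and vascular marker lists were low apart from single genes. Of 5 fibroblast markers COL1A2, DCN and LUM had 0 reads in every library and COL1A1 was 1.15 to 2.02 FPKM, and the 5 endothelial markers summed to 1.52 to 2.38 FPKM, mostly from CDH5. COL1A1 (log2 fold change -0.67, limma adjusted p = 0.00319) and CDH5 (log2 fold change 0.65, limma adjusted p = 0.0039) differed between the groups by more than 0.5. Of 5 pericyte markers 4 had a single row in the table. NOTCH3, at 35.2 to 43.1 FPKM, made up nearly all of their sum, while KCNJ8 and ABCC9 had 0 reads. The leukocyte markers summed to 0.931 to 1.36 FPKM, led by CD14, and the neural markers to 2.53 to 3.61 FPKM, most of it MBP. With an adjusted p under 0.05 and a log2 fold change within 0.5, MBP (-0.40), EPCAM (-0.24) and NOTCH3 (-0.20) were lower and CDH1 (0.16) was higher. The part of these markers in the results was not tested.

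All 10 genes were detected in all 6 libraries, over a wide range of levels. In BrM3-shNC the highest was VEGFB at 27.9 ± 0.419 FPKM (SD, n = 3), and PDGFB followed at 26.1 ± 0.539 FPKM (SD, n = 3). The next in order were PDGFA at 6.98 ± 0.498, VEGFC at 6.87 ± 0.133, VEGFA at 6.38 ± 0.141 and NRP1 at 4.53 ± 0.288 FPKM. PDGFD at 1.37 ± 0.295, PDGFC at 1.37 ± 0.13, PGF at 0.784 ± 0.131 and NRP2 at 0.734 ± 0.0688 FPKM were the lowest. Among neighbours in this order, PDGFA and VEGFC overlapped over the 3 libraries, as did PDGFD and PDGFC, and PGF and NRP2. VEGFB was thus the leading VEGF transcript and PDGFB the leading PDGF transcript on the FPKM scale.

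The order within the VEGF family depended on the gene length used. FPKM divides reads by the length of all exons of a gene, which is 14431 bases for VEGFA, a gene with 32 annotated transcripts, against 3535 bases for its longest basic coding transcript. Scaled to the length of that transcript, VEGFA in BrM3-shNC stood at 26.1 ± 0.578 (n = 3), close below VEGFB at 31.2 ± 0.47 and PDGFB at 28.1 ± 0.58 FPKM. PGF, with 5962 bases of exons and a longest coding transcript of 1927 bases, moved from rank 9 to rank 7, and PDGFD moved from rank 7 to rank 10. NRP1 and NRP2 about doubled on this scale, to 8.88 ± 0.563 and 1.53 ± 0.144 FPKM in BrM3-shNC. Which transcripts the cells made cannot be read from a table of genes. The ratio of a gene's mean FPKM between groups is the same with either length, whereas the filter at 1 FPKM and log2(FPKM + 0.1) depend on it.

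**Figure D1:**
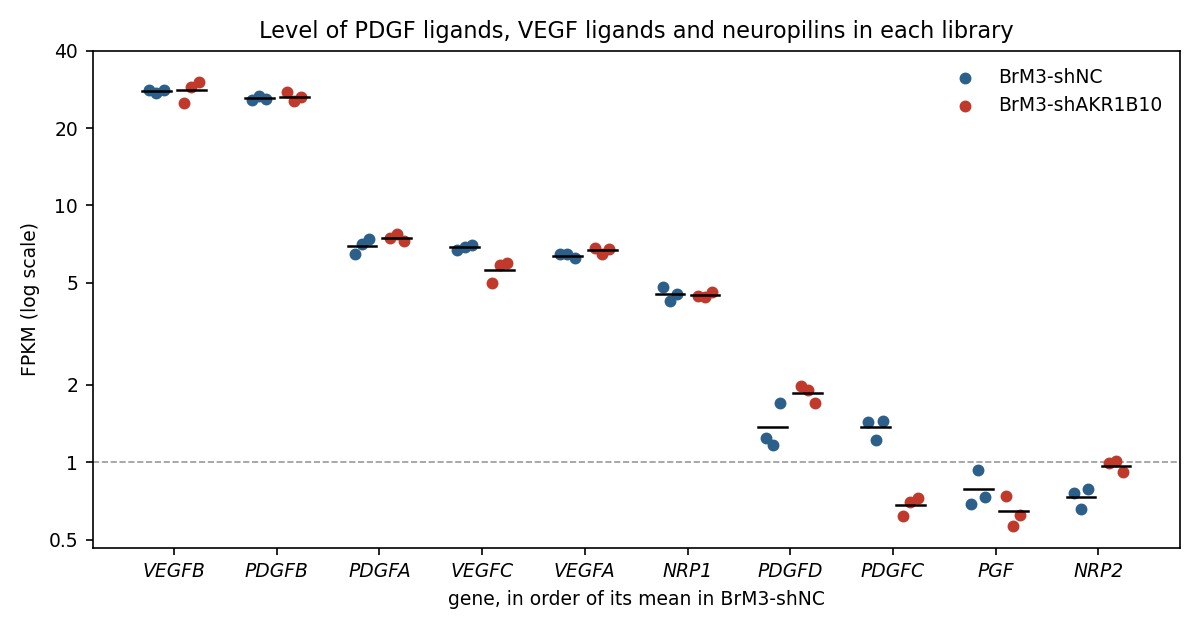
Level of each of the 10 genes in FPKM on a log axis, 1 point per library and a bar at the group mean, for BrM3-shNC (blue) and BrM3-shAKR1B10 (red). The dashed line marks 1 FPKM. VEGFB and PDGFB lie above 25 FPKM in all libraries, PDGFC is lower in BrM3-shAKR1B10 with no overlap, and PDGFD overlaps only through the highest control library.

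To ask which of these genes moved with AKR1B10 silencing, all genes with a mean of at least 1 FPKM over the 6 libraries were compared on the scale log2(FPKM + 0.1). The test was limma, and p was adjusted by Benjamini-Hochberg over all 13150 genes tested. Genes counted as called had an adjusted p below 0.05 together with a log2 fold change beyond 0.5 in either direction. Of the 10 genes 8 passed the filter on low values, while PGF and NRP2 did not. A single member, PDGFC, was called lower (1 of 8 tested) and none was called higher. Over all genes tested, 7.45% were called lower and 5.83% higher. Regardless of the size of the change, 2 of the 8 had an adjusted p under 0.05 (PDGFC and VEGFC, both lower), where 23.1% of all genes tested were lower and 19.4% higher by that measure. The groups did not overlap for 3 of the 8, or 37.5%, against 54.7% of all genes tested. These shares are near or below the background, so as a group the ligands and neuropilins did not stand apart, and their median log2 fold change was 0.01 against -0.01 over all genes tested. In the absence of a filter, 1 of the 10 (PDGFC) was called, where 3.44% of 31583 genes were called lower and 2.98% higher.

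PDGFC, a latent ligand that forms PDGF-CC, fell to about 50% of the control. It was 0.617, 0.703 and 0.726 FPKM in the BrM3-shAKR1B10 libraries and 1.43, 1.22 and 1.45 FPKM in the BrM3-shNC libraries. Every silenced library lay below every control library. In reads, these values rest on 61, 71 and 72 against 147, 115 and 148. The log2 fold change was -0.91 (standard error 0.177, 95% confidence interval -1.33 to -0.48, limma adjusted p = 0.00721), and the mean was 49.9% of the control mean. Its mean over the 6 libraries, 1.02 FPKM, lay just above the filter and reached it through the control group. Without the filter the limma adjusted p was 0.00973. The spread between libraries, 8.4% and 9.54% of the mean in BrM3-shAKR1B10 and BrM3-shNC, was close to the counting error of 12.1% and 8.55% that the reads alone give. With a pseudocount of 1 in place of 0.1, which compresses low genes, the log2 fold change was -0.49 and PDGFC no longer passed the threshold of 0.5. Among the 980 genes called lower over the whole table, PDGFC ranked 261 by the size of its fall. In bulk RNA, fewer cells that express a gene and less RNA per cell cannot be told apart.

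PDGFD, the other latent ligand, had values in the opposite direction without passing the test. It was 1.98, 1.91 and 1.71 FPKM in BrM3-shAKR1B10 and 1.24, 1.16 and 1.71 FPKM in BrM3-shNC. The groups overlapped by a single pair of libraries, 1.705 FPKM in replicate 3 of BrM3-shAKR1B10 and 1.708 FPKM in replicate 3 of BrM3-shNC. The log2 fold change was 0.43 (standard error 0.163, 95% confidence interval 0.04 to 0.82, limma adjusted p = 0.0724). The spread in BrM3-shNC was 21.5% of the mean, above the counting error of 9.77%, and came from replicate 3. Without that control library the log2 fold change was 0.59 (limma adjusted p = 0.0194) and PDGFD was called higher, while without any other library it was 0.33 to 0.49 and not called.

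The classical chains were close to their control levels. PDGFA was 7.46, 7.71 and 7.27 FPKM in BrM3-shAKR1B10 and 6.45, 7.07 and 7.43 FPKM in BrM3-shNC (log2 fold change 0.10, 95% confidence interval -0.05 to 0.25, limma adjusted p = 0.23). PDGFB was 27.7, 25.5 and 26.4 FPKM against 25.6, 26.7 and 26 FPKM (log2 fold change 0.02, 95% confidence interval -0.07 to 0.12, limma adjusted p = 0.688). Both overlapped between the groups, and the intervals lie within the threshold of 0.5 on either side. PDGFB shares its position with the antisense gene AL031590.1, which held 10 to 34 reads beside 1698 to 1839 for PDGFB.

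Among the VEGF ligands, VEGFC was lower in all BrM3-shAKR1B10 libraries by a small amount. It was 5, 5.88 and 5.99 FPKM in BrM3-shAKR1B10 and 6.73, 6.89 and 7 FPKM in BrM3-shNC. The groups did not overlap, and the silenced mean was 81.8% of the control mean. The log2 fold change was -0.29 (standard error 0.074, 95% confidence interval -0.47 to -0.11, limma adjusted p = 0.0202), short of the threshold of 0.5. Without replicate 2 or replicate 3 of BrM3-shNC the limma adjusted p was 0.0553 and 0.0594, with log2 fold changes of -0.29 and -0.28.

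VEGFA, the main blood vessel ligand of the family, was 6.82, 6.49 and 6.78 FPKM in BrM3-shAKR1B10 and 6.45, 6.47 and 6.22 FPKM in BrM3-shNC. The groups were apart by a narrow margin, and the difference did not pass the test (log2 fold change 0.07, 95% confidence interval -0.03 to 0.17, limma adjusted p = 0.241). VEGFB was 25.1, 28.9 and 30.3 FPKM in BrM3-shAKR1B10 and 28, 27.4 and 28.2 FPKM in BrM3-shNC (log2 fold change 0.01, 95% confidence interval -0.16 to 0.17, limma adjusted p = 0.953). Here the silenced libraries spread over 9.63% of the mean, more than the counting error of 3.6%, with replicate 1 lowest. PGF, placental growth factor, was 0.74, 0.567 and 0.624 FPKM against 0.686, 0.932 and 0.735 FPKM and overlapped between the groups. It rested on 61 to 94 reads per library and was under the filter. Without the filter its log2 fold change was -0.25 (95% confidence interval -0.73 to 0.24, limma adjusted p = 0.532), an interval that includes a fall of the size of the threshold.

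NRP1 was at the control level within its spread, and the values of NRP2 were higher in BrM3-shAKR1B10 without passing the test. NRP1 was 4.45, 4.4 and 4.6 FPKM in BrM3-shAKR1B10 and 4.82, 4.24 and 4.53 FPKM in BrM3-shNC, with full overlap (log2 fold change -0.01, 95% confidence interval -0.16 to 0.13, limma adjusted p = 0.87). NRP2 was 0.99, 1.01 and 0.913 FPKM in BrM3-shAKR1B10 and 0.761, 0.655 and 0.785 FPKM in BrM3-shNC. All 3 silenced libraries were above all 3 controls for NRP2, on 225 to 253 reads against 154 to 199. NRP2 was under the filter, and without the filter its log2 fold change was 0.36 (95% confidence interval -0.01 to 0.73, limma adjusted p = 0.202). With limma's voom on the recovered reads and no filter it was 0.40 (adjusted p = 0.0133), still short of the threshold of 0.5.

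**Figure D2:**
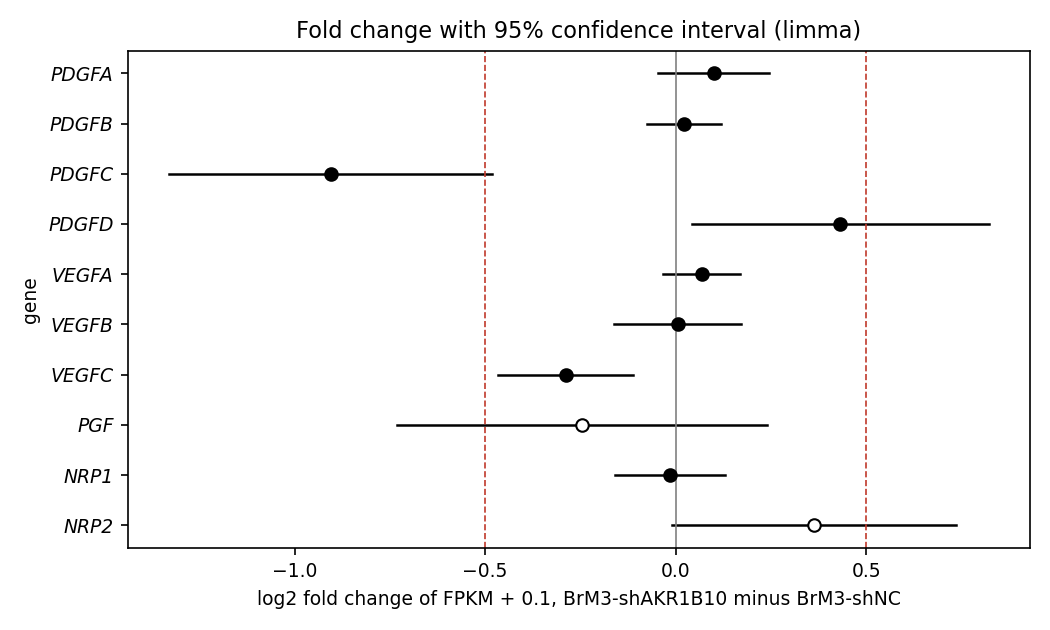
Log2 fold change of FPKM + 0.1 of each gene (BrM3-shAKR1B10 minus BrM3-shNC) with the 95% confidence interval from limma. Filled points were tested with the filter, and open points (PGF and NRP2) come from the fit without it. The dashed lines mark the threshold of 0.5. PDGFC lies beyond it at -0.91, while VEGFC at -0.29 and PDGFD at 0.43 lie between the lines.

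A call for one gene and not for another does not show that they differ, so ratios of 7 pairs of genes were compared within each library by an exact two-sided permutation test. With 3 libraries against 3 the smallest p this test can give is 0.1, and no pair could pass 0.05. The FPKM of PDGFC was 0.849 to 1.16 times that of PDGFD in BrM3-shNC and 0.312 to 0.426 times in BrM3-shAKR1B10. On the log2 scale the PDGFC/PDGFD ratio was 0.01 ± 0.21 (SD, n = 3) in BrM3-shNC and -1.33 ± 0.2 (SD, n = 3) in BrM3-shAKR1B10, a difference of -1.34 (exact permutation p = 0.1, adjusted over the 7 pairs p = 0.175). On the FPKM scale the latent ligands were thus at similar levels in the controls and apart in every silenced library. Per length of the longest coding transcript, the BrM3-shNC means were 1.83 for PDGFC and 1.44 for PDGFD. PDGFA was 4.5 to 5.81 times PDGFC in FPKM in BrM3-shNC and 10 to 12.1 times in BrM3-shAKR1B10. NRP1 was 5.78 to 6.48 times NRP2 in BrM3-shNC and 4.36 to 5.03 times in BrM3-shAKR1B10. VEGFA was 0.889 to 0.958 times VEGFC in BrM3-shNC and 1.1 to 1.36 times in BrM3-shAKR1B10, so that their order on the FPKM scale turned, while per length of the longest coding transcript VEGFA was above VEGFC in both groups. Each of these 4 pairs had no overlap between the groups and the same exact permutation p of 0.1. With a pseudocount of 1 the differences on the log2 scale were smaller, -0.77 in place of -1.34 for PDGFC/PDGFD, 0.58 in place of 1.01 for PDGFA/PDGFC and -0.20 in place of -0.38 for NRP1/NRP2. The VEGFA/VEGFB, VEGFA/PGF and PDGFA/PDGFB ratios overlapped, with exact permutation p = 0.8, 0.2 and 0.4.

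**Figure D3:**
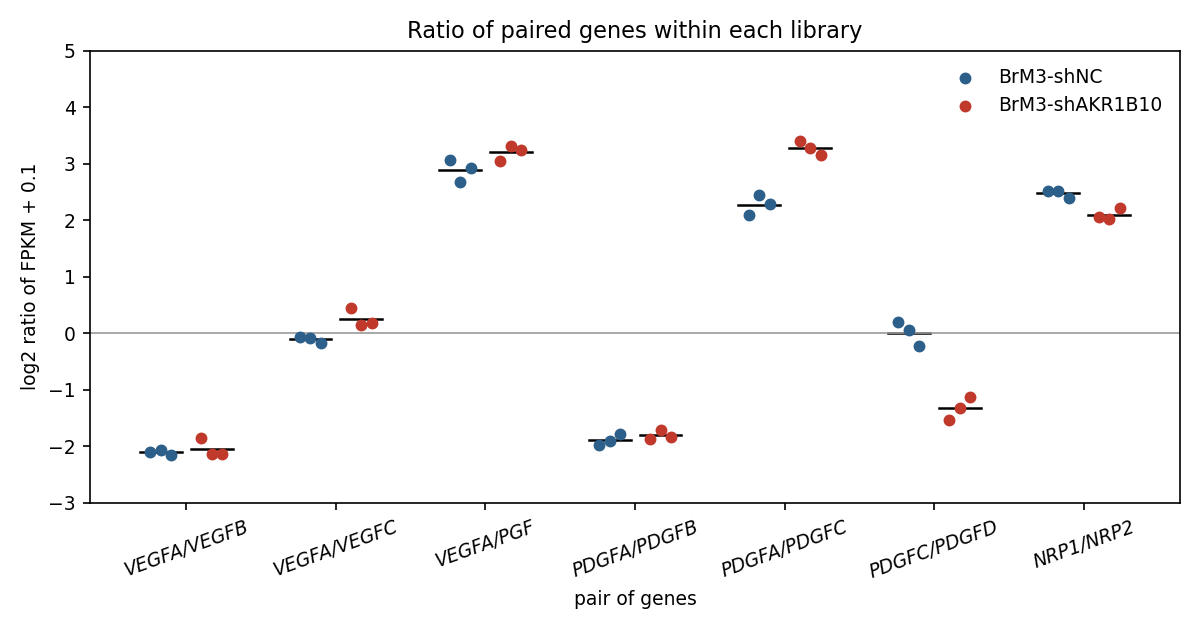
Log2 ratio of FPKM + 0.1 of 7 pairs of genes within each library, 1 point per library and a bar at the group mean, for BrM3-shNC (blue) and BrM3-shAKR1B10 (red). The groups are apart for VEGFA/VEGFC, PDGFA/PDGFC, PDGFC/PDGFD and NRP1/NRP2. The PDGFC/PDGFD ratio has the widest gap, from 0.01 to -1.33 between the group means.

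The summed level of each family did not differ beyond the spread between libraries. The 4 PDGF ligands summed to 36.5 ± 1.03 FPKM with silencing against 35.8 ± 0.937 FPKM in the controls (SD, n = 3 each, exact permutation p = 0.6). PDGFC and PDGFD together summed to 2.55 ± 0.0996 and 2.74 ± 0.393 FPKM (exact permutation p = 0.5, n = 3 each), and both sums overlapped between the groups. PDGFB made up 72.6% ± 1.21 of the PDGF sum in BrM3-shAKR1B10 and 72.9% ± 1.61 in BrM3-shNC (SD, n = 3). The share of PDGFC was 1.87% ± 0.204 against 3.82% ± 0.4 and that of PDGFD 5.1% ± 0.329 against 3.82% ± 0.759, without overlap for either. The VEGF ligands summed to 41 ± 3.1 and 41.9 ± 0.223 FPKM (exact permutation p = 0.8, n = 3 each). VEGFC made up 13.7% ± 0.373 in BrM3-shAKR1B10 and 16.4% ± 0.29 in BrM3-shNC, without overlap, and VEGFB 68.3% ± 1.51 and 66.5% ± 0.684. All these shares rest on the length of all exons. Scaled to the longest coding transcript, VEGFA in BrM3-shNC was 26.1 FPKM beside 31.2 FPKM for VEGFB, so the shares would differ. As shares of reads, which are not per length, the difference in percentage points was -0.00851 for VEGFB in place of 1.83, and 2.55 for VEGFA in place of 1.16. The exact permutation p of the PDGFC, PDGFD and VEGFC shares was 0.1 each, or 0.267 adjusted over the 8 shares.

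The receptors of these ligands were at or near 0. PDGFRA, KDR and FLT4 had 0 reads in all 6 libraries, FLT1 had 1 read in 1 library, and PDGFRB was 0.0237 to 0.0691 FPKM, from at most 9 reads. Over these libraries 3 reads on a gene of 1000 bases, taken as the smallest level the depth can show, correspond to 0.163 to 0.177 FPKM, and this limit covers counting error only. PDGFRL, a secreted protein that resembles a PDGF receptor and lacks a kinase domain, was 1.29, 1.49 and 1.03 FPKM in BrM3-shAKR1B10 and 0.86, 1.23 and 0.933 FPKM in BrM3-shNC (log2 fold change 0.31, standard error 0.208, limma adjusted p = 0.27). Ligand transcripts were thus measured in cells in which transcripts of their kinase receptors were barely or not detected.

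Several partners of the neuropilins rose, and others were lower. Of 13 plexins, class 3 semaphorins and GIPC1, 8 were tested and the other 5 were under the filter. Of the 8, 4 were called higher and none lower (5.83% and 7.45% over all genes tested), with a median log2 fold change of 0.34. At any fold, 4 were higher and 1 lower at an adjusted p under 0.05 (19.4% and 23.1%). This list, like the other gene lists, was written with earlier results of these data known, so these counts are a description only. SEMA3C, a ligand of both neuropilins, was 20, 20.9 and 19.1 FPKM in BrM3-shAKR1B10 and 12.4, 11.9 and 12.1 FPKM in BrM3-shNC (log2 fold change 0.72, standard error 0.0433, limma adjusted p = 6.1e-05). SEMA3F, a ligand that prefers NRP2, was 5.85, 5.99 and 6.84 FPKM against 3.69, 3.91 and 3.89 FPKM (log2 fold change 0.68, limma adjusted p = 0.000504). PLXNA1, a signalling receptor that pairs with neuropilins, rose by 0.66 (limma adjusted p = 9.58e-05), and the semaphorin SEMA3B rose by 0.59 (limma adjusted p = 4.94e-05). The receptor PLXND1 went the other way, at 12.3, 12 and 13.1 FPKM against 16, 16.2 and 16.2 FPKM (log2 fold change -0.37, limma adjusted p = 0.000704), short of the threshold of 0.5. Of the genes under the filter, which were not tested, PLXNA4 was lower without overlap, at 0.088 to 0.124 against 0.307 to 0.358 FPKM. SEMA3A, at no more than 0.14 FPKM, was also lower without overlap. SEMA3E was higher without overlap, at 0.677 to 0.743 against 0.228 to 0.265 FPKM. For each of the 4 genes called, every silenced library lay above every control, and the groups did not overlap for 54.7% of all genes tested. NRP2, under the filter and not called, was also higher in every silenced library, while NRP1 overlapped between the groups.

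The proteins that process the ligands and pass on the receptor signal held no call (7.45% lower and 5.83% higher over all genes tested). Of 9 ligand-processing proteins 7 were tested (median log2 fold change 0.10), and the most abundant, ST14 or matriptase, a membrane protease that can activate the latent PDGF ligands, was 40 to 41.7 FPKM in BrM3-shAKR1B10 and 45.4 to 48.2 FPKM in BrM3-shNC (log2 fold change -0.19, limma adjusted p = 0.00531, short of the threshold of 0.5). PLAU had the largest change among those tested and went the other way. It was 38.6 to 40.2 FPKM in BrM3-shAKR1B10 and 27.6 to 29.4 FPKM in BrM3-shNC (log2 fold change 0.46, limma adjusted p = 0.000161), also short of the threshold. All 12 receptor adaptors were tested (median log2 fold change -0.02), and the most abundant, SHC1, had a log2 fold change of -0.04 (limma adjusted p = 0.537). At any fold, 3 ligand-processing proteins were lower and 2 higher at an adjusted p under 0.05, as were 1 and 4 of the adaptors, where 23.1% of all genes tested were lower and 19.4% higher.

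Among other genes of angiogenesis, a single factor and a single inhibitor passed both thresholds. Of 20 other angiogenic factors 9 were tested (median log2 fold change -0.21) and 1 was called lower (7.45% over all genes tested). At any fold, 4 of the 9 were lower and 2 higher at an adjusted p under 0.05 (23.1% and 19.4% over all genes tested). The gene called was CXCL8, a chemokine that recruits neutrophils and acts on endothelial cells, at 5.75, 4.75 and 5.23 FPKM in BrM3-shAKR1B10 and 16, 17 and 16.6 FPKM in BrM3-shNC (log2 fold change -1.64, standard error 0.0718, limma adjusted p = 2.1e-05). Of 11 angiogenesis inhibitors 5 were tested (median log2 fold change 0.08), 1 was lower and 1 higher at an adjusted p under 0.05 (23.1% and 19.4% over all genes tested), and the latter was called (5.83% over all genes tested). It was TIMP3, a metalloproteinase inhibitor, at 71.6, 68.4 and 72.4 FPKM against 35.7, 33.9 and 34.8 FPKM (log2 fold change 1.02, limma adjusted p = 1.21e-05). Both genes had groups that did not overlap, as did 54.7% of all genes tested.

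VEGFA is a textbook target of the hypoxia-inducible factors, so the genes of oxygen sensing were set beside it. Of 10 oxygen-sensing proteins 8 were tested (median log2 fold change 0.13), 2 were called higher and none lower (5.83% and 7.45% over all genes tested). At any fold, 4 were higher and 1 lower at an adjusted p under 0.05 (19.4% and 23.1%). EPAS1, the factor HIF-2 alpha, was 38.7, 36.6 and 38.1 FPKM in BrM3-shAKR1B10 and 23.5, 23.1 and 21.7 FPKM in BrM3-shNC (log2 fold change 0.73, limma adjusted p = 5.48e-05). EGLN3, a prolyl hydroxylase that marks these factors for degradation, was 5.9, 5.4 and 5.79 FPKM against 2.33, 2.23 and 2.63 FPKM (log2 fold change 1.22, limma adjusted p = 6.94e-05). ARNT, the partner subunit of these factors, was lower by less than the threshold (log2 fold change -0.30, limma adjusted p = 0.00222). Of 12 hypoxia targets 9 were tested (median log2 fold change -0.14), with 1 called lower and none higher (7.45% and 5.83% over all genes tested). At any fold, 3 were lower and 1 higher at an adjusted p under 0.05 (23.1% and 19.4%). The gene called lower was AK4, an adenylate kinase, which fell by 0.70 (limma adjusted p = 0.00024). Of the targets under the filter, which were not tested, CA9 was lower without overlap. It was 0.136 to 0.265 FPKM in BrM3-shAKR1B10 and 0.751 to 1.02 FPKM in BrM3-shNC, on at most 31 reads. ANKRD37 and ANGPTL4 overlapped between the groups. The VEGFA values given above, 6.49 to 6.82 against 6.22 to 6.47 FPKM, stood beside these without a call. Protein levels and secreted ligand were not analysed here.

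The genes whose pattern over the 6 libraries was most like that of PDGFC, among 10777 protein-coding genes tested, were CHD3 (Pearson r = 0.999), PDIA6 (r = 0.998) and VCP (r = 0.998). The 6 libraries fall into 2 groups that differ for these genes, so each r mainly restates the group difference. Their fold changes were smaller than that of PDGFC, with log2 values of -0.22, -0.18 and -0.17. CHD3 is a chromatin remodeller, PDIA6 a protein disulfide isomerase and VCP an ATPase that extracts proteins for degradation.

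Reads can be split between genes only where their sequences are alike. Of the words of 50 bases in the annotated transcripts, none of those of PDGFA, PDGFB, PDGFC, VEGFB or VEGFC occurred on either strand in a transcript of another gene. For PDGFD 3.38% did, all in DDI1, which lies within PDGFD on the opposite strand and had 0 reads. The shares were 4% for NRP1, 1.62% for PGF, 0.996% for NRP2 and 0.929% for VEGFA.

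The direction of PDGFC, PDGFD, VEGFC and NRP2 was the same under each processing setting in which the gene was tested. PDGFC and PDGFD were not tested with a mean FPKM of at least 5, and NRP2 was tested only in fits without the filter. PDGFC had an adjusted p under 0.05 in 21 of 22 alternatives, with log2 fold changes from -0.999 to -0.491. VEGFC had one in 13 of 15, PDGFD in 2 of 14 and NRP2 in 1 of 9.

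**Figure D4:**
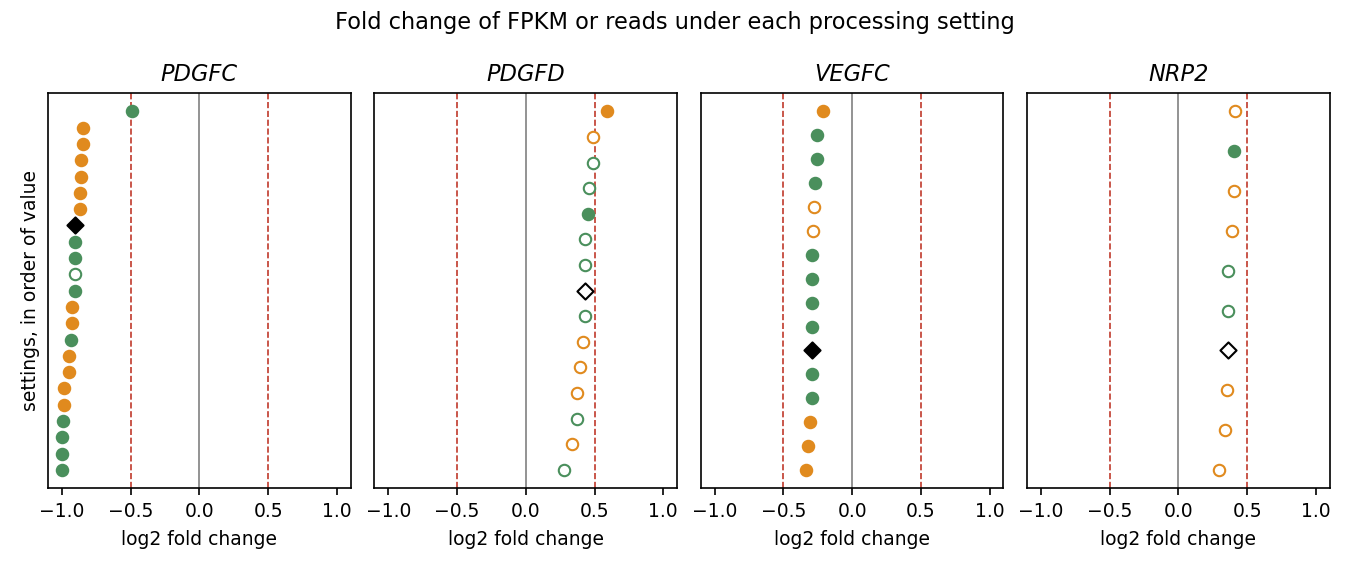
Log2 fold change of PDGFC, PDGFD, VEGFC and NRP2 under each processing setting, in order of value, with the reported value as a black diamond, fits without a library in orange and other settings in green. Filled symbols had an adjusted p under 0.05, and dashed lines mark the threshold of 0.5. PDGFC stays at or below -0.49, and PDGFD passes 0.5 in a single fit.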

How the data were processed

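Groups and replicate numbers came from the sample labels. According to the study's methods, mRNA was purified with poly-T beads and sequenced as paired ends, and the authors aligned reads with HISAT2 2.0.5 and counted them with featureCounts 1.5.0-p3 (versions from the submitters' processing notes). The authors deposited FPKM per gene, with replicates not pooled. Genome build and use of strand are not given in the sources used here, and all 58735 gene identifiers and positions match GENCODE 29 (GRCh38). FPKM times gene length gave whole reads in 100% of cases (tolerance 0.01).

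FPKM was compared in R 4.3.3 with limma 3.58.1 (eBayes with a trend) after adding 0.1 and taking log2, which understates changes of low genes, and was tested on simulated data. Shares and ratios were compared with exact permutation tests (scipy 1.17.1). The members and the gene lists were chosen with earlier results of these data known. Genes named are all members, AKR1B10, all receptors of the list, up to 4 called genes with the largest change in each other list (its most abundant gene where none was called), the 3 genes most like a called member and overlapping genes with over 10 reads. COL1A2, DCN, LUM, KCNJ8 and ABCC9, and DDI1, are named besides as genes at 0. The epithelial markers KRT8, KRT18, EPCAM and CDH1 are named as the list. PLXND1, PLXNA4, SEMA3A, SEMA3E, PLAU, CA9, ANKRD37, ANGPTL4 and ARNT were chosen after their values were seen.

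The alternatives tried were other pseudocounts (1 and 0.01), other filters (none, or a mean FPKM of at least 5), TPM, quantile normalization, no trend, voom on recovered reads, the replicate block, a log2 fold change above 1 and each library left out. Scaling by the longest transcript, and fits that combined no filter with another change for PDGFC, PGF and NRP2, were added after seeing the data.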

Additional observations from a re-analysis of the deposited data

How the results depend on the processing

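PDGFC was called lower in every fit with a library left out (log2 fold change -0.98 to -0.84) and the number of genes called lower among the 10 was 1 in each. That number was 0 with a pseudocount of 1, with a mean FPKM of at least 5, where PDGFC was not tested, and with a log2 fold change above 1. Over all genes tested, 980 were called lower and 766 higher, 532 and 290 with a mean FPKM of at least 5, and 205 and 168 with a log2 fold change above 1. With TPM 873 were lower and 902 higher, so that the balance turned. With a pseudocount of 1 the number called higher was 497. With a library left out it was 656 to 759, and the number called lower was 947 to 971.

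The number of members called higher was 0 to 1 with a library left out, the 1 being PDGFD without replicate 3 of BrM3-shNC (PDGFD 0.33 to 0.59 over these fits). With voom on recovered reads PDGFD was 0.45 (adjusted p = 0.0198). VEGFC was -0.34 to -0.21 with a library left out, and NRP2 was 0.40 with voom and no filter.

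Replicate numbers did not pair the libraries, since the deviations of same-numbered libraries correlated at -0.0155, 0.00388 and 0.00383, and no library correlated best with its own number. With the replicate block 967 genes were called lower and 719 higher. PDGFC stayed called (adjusted p = 0.0277), but with the block and no filter together its value of -0.91 had an adjusted p of 0.0509.

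As shares of reads in place of FPKM, the differences in percentage points were -2.76 for PDGFC, 2.55 for VEGFA, -0.00851 for VEGFB and -1.99 for VEGFC. With a pseudocount of 1 the differences of the log2 ratios were 0.58 for PDGFA/PDGFC, -0.77 for PDGFC/PDGFD and -0.20 for NRP1/NRP2. With the longest coding transcript as length, 7 of 10 members changed rank in BrM3-shNC. PDGFC, PGF and PDGFD rested on 61 to 149 reads per library, the fewest among the members.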
